A study of Mus musculus with 12 samples.

Results

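10 genes that mark the muscle cells and pericytes of the vessel wall were followed in RNA of the mouse left ventricle. They are Myh11, Tagln, Cnn1, Acta2, Mylk, Smtn, Rgs5, Notch3, Pdgfrb and Cspg4, a list set by name, and they are 10 of the 78334 gene rows of the count table. 9 of them were among the 16981 genes with enough counts to test, and Tagln was not. Each of 3 groups held 4 libraries, described in the labels as biological replicates. UNX/DOCA ITF2357 mice had 1 kidney removed, received deoxycorticosterone acetate, and ate chow holding ITF2357, the histone deacetylase inhibitor givinostat, from week 4 after surgery for 4 weeks. UNX/DOCA vehicle mice had the same surgery and hormone with normal chow, and Sham vehicle mice had a sham operation with normal chow. No group of sham-operated mice on ITF2357 chow was among the samples, so the drug is read here only in hormone-treated mice. The labels used here give neither strain nor age.

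Vascular smooth muscle cells ring the arteries and contract when a kinase phosphorylates the myosin light chain, which lets smooth muscle myosin pull on actin filaments. Pericytes lie outside the endothelium of capillaries, and are recruited there by platelet-derived growth factor acting on its beta receptor. Many contractile genes are switched on by serum response factor with its coactivator myocardin, which bind the CArG box, and Acta2 is also made by fibroblasts when they become myofibroblasts. These are textbook facts and not results of these data.

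The libraries held between 23.4 and 34.9 M gene counts (M for mega), so 1 CPM, a count per M counts, stands for at least 23.4 counts. Cardiomyocyte markers summed to 66234 to 72347 CPM in UNX/DOCA ITF2357, 64241 to 68823 CPM in UNX/DOCA vehicle and 67767 to 80729.6 CPM in Sham vehicle hearts, so the labelled tissue is borne out by its main cell type. In whole tissue, fewer cells of a type and less RNA per cell cannot be told apart. A gene is called changed where the quasi-likelihood test of edgeR gives a p of at most 0.05 after Benjamini-Hochberg adjustment over all 16981 genes. The 3 comparisons share libraries, so each library group enters a pair of them. The libraries are numbered in consecutive blocks by group, so any effect of processing order and the group cannot be told apart. The p-values set a difference between groups against the spread between libraries within groups, estimated over all 3 groups.

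Before any comparison, the members differed widely in level. Per kilobase of exon, Acta2 averaged 131 ± 32.3 and Rgs5 131 ± 6.60 CPM per kb in Sham vehicle hearts (SD, n = 4). Smtn followed with 31.4 ± 1.25, then Pdgfrb with 10.6 ± 0.95, Notch3 with 4.11 ± 0.53 and Myh11 with 2.94 ± 0.35 CPM per kb. Mylk stood at 1.98 ± 0.39, Cspg4 at 1.53 ± 0.15, Cnn1 at 0.443 ± 0.125 and Tagln at 0.0733 ± 0.0203 CPM per kb. Acta2 with Rgs5 and Notch3 with Myh11 were the neighbours that overlapped over the 4 Sham vehicle libraries, and the other neighbours in this order did not.

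Tagln, which encodes the actin-binding protein transgelin of smooth muscle, was close to undetected. It had 6, 7, 2 and 6 counts in UNX/DOCA ITF2357, 7, 4, 10 and 5 counts in UNX/DOCA vehicle, and 4, 4, 3 and 5 counts in Sham vehicle libraries. The highest of these is 0.416 CPM, and the groups overlap throughout. It was tested only in a fit with no filter on low counts, where its log2 fold change was -0.34 between UNX/DOCA ITF2357 and UNX/DOCA vehicle (adjusted p = 0.866). In the GRCm38 gene models, 798 of the 1983 different stretches of 150 bases in its transcripts (40.2%) are also found, read on either strand, in the overlapping gene Gm48529 on the other strand. Whether the counting step set this low level was not tested, and Tagln is left out of the counts below.

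**Figure D1:**
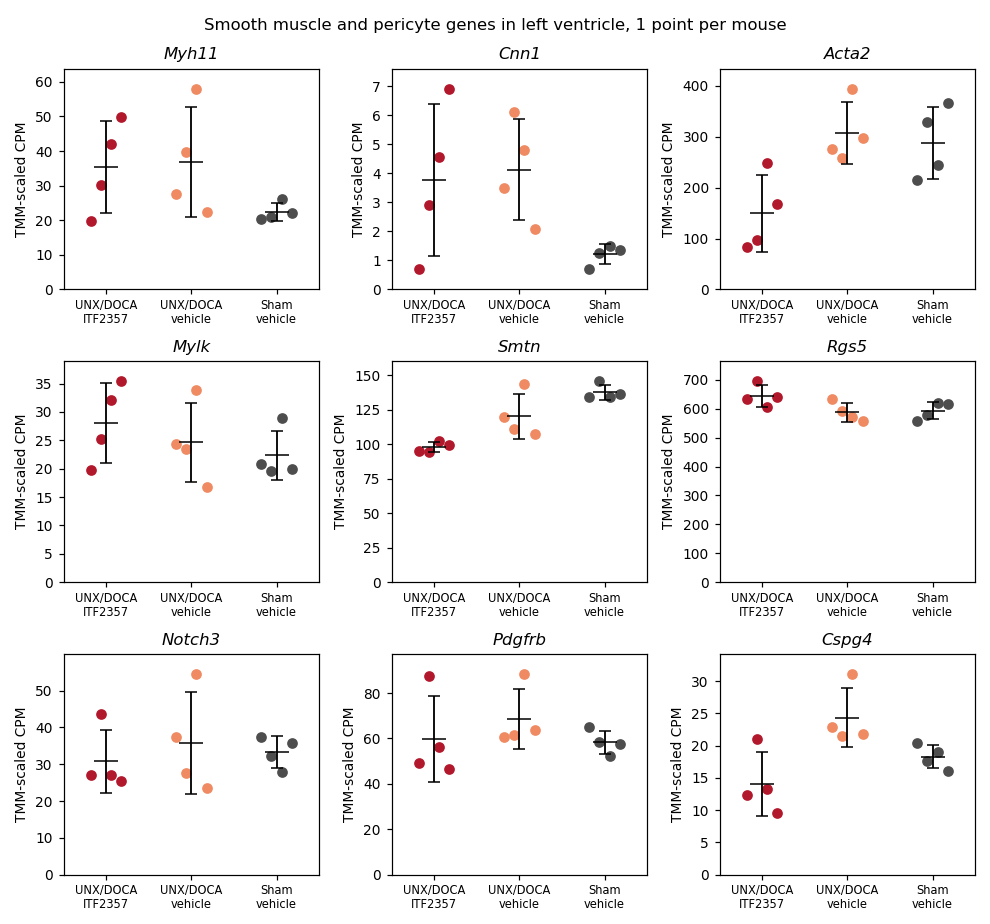
CPM of the 9 tested members in each library (points) with the mean (horizontal line) and SD (whiskers) of each group of 4, on linear axes starting at 0; groups run from UNX/DOCA ITF2357 on the left to Sham vehicle on the right. Acta2, Smtn and Cspg4 have all 4 UNX/DOCA ITF2357 libraries below all 4 UNX/DOCA vehicle libraries, and Cnn1 has all 4 UNX/DOCA vehicle libraries above all 4 Sham vehicle libraries.

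The first comparison asks what ITF2357 chow did in UNX/DOCA hearts. None of the 9 tested members passed the adjusted threshold, against 0.901% of all genes (78 higher and 75 lower). Acta2, Smtn and Cspg4 had the lowest p of the members, each at an unadjusted p under 0.05 and each with all UNX/DOCA ITF2357 libraries below all UNX/DOCA vehicle libraries. An unadjusted p under 0.05 was reached by 18.5% of all genes, 9.8% on the lower side, and 4.36% of all genes were lower with no overlap. The median log2 fold change was -0.20 over the 9 members and -0.00 over all genes.

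Acta2 encodes the smooth muscle alpha actin of the thin filament, and lies at chr19:34241090-34255590 on the minus strand of GRCm38. It had 83.7, 97.4, 248 and 168 CPM in UNX/DOCA ITF2357 hearts, against 276, 259, 394 and 298 CPM in UNX/DOCA vehicle hearts. The UNX/DOCA ITF2357 libraries differed widely, and even the highest of them lay under every UNX/DOCA vehicle library. The means were 149 ± 75.5 and 307 ± 60.3 CPM (SD, n = 4 each), a log2 fold change of -1.04 ± 0.31 (SE) with an unadjusted p of 0.00577 and an adjusted p of 0.117. Of 17 alternative fits only DESeq2 called it lower (adjusted p = 0.0156), and the highest adjusted p among them was 0.355. DESeq2 called more genes than edgeR in every comparison. Sham vehicle hearts had 215, 328, 244 and 366 CPM.

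Smtn encodes smoothelin, an actin-binding protein of contractile smooth muscle, and lies at chr11:3517523-3540612 on the minus strand. It had 95.2, 94.7, 103 and 99.8 CPM in UNX/DOCA ITF2357 hearts, against 120.1, 111, 143 and 107 CPM in UNX/DOCA vehicle hearts. All 4 drug-fed hearts were below all 4 hearts on normal chow, by a small margin at the edge. The log2 fold change was -0.30 ± 0.08 (unadjusted p = 0.00407, adjusted p = 0.105). Of 17 alternative fits only DESeq2 called it lower (adjusted p = 0.0273), and the highest adjusted p among them was 0.237.

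Cspg4 encodes NG2, a membrane proteoglycan of pericytes, and lies at chr9:56865033-56899870 on the plus strand. It had 12.3, 21.05, 13.2 and 9.61 CPM in UNX/DOCA ITF2357 hearts, against 22.8, 21.5, 31.1 and 21.9 CPM in UNX/DOCA vehicle hearts. Replicate 2 of the UNX/DOCA ITF2357 hearts came within 1 CPM of the lowest UNX/DOCA vehicle heart, and the other 3 were well below. The means were 14.1 ± 4.91 and 24.3 ± 4.56 CPM, a log2 fold change of -0.79 ± 0.20 (unadjusted p = 0.00201, adjusted p = 0.0807). Cspg4 was called lower by DESeq2 (adjusted p = 0.00939) and by edgeR without replicate 2 of the UNX/DOCA ITF2357 hearts (adjusted p = 0.0168). The other 15 of 17 alternative fits did not call it.

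The stretches before the start sites are shown for these 3 genes, the only members whose UNX/DOCA ITF2357 and UNX/DOCA vehicle libraries did not overlap, because Acta2 is a standard target of serum response factor. Each line gives the 250 bases 5′ of the start of the RefSeq transcript in GRCm38.p6, 5′ to 3′ on the gene's strand, with CArG-like boxes in capitals. The windows are chr19:34255374-34255623 on the minus strand for Acta2, chr11:3539293-3539542 on the minus strand for Smtn and chr9:56864854-56865103 on the plus strand for Cspg4.
Acta2: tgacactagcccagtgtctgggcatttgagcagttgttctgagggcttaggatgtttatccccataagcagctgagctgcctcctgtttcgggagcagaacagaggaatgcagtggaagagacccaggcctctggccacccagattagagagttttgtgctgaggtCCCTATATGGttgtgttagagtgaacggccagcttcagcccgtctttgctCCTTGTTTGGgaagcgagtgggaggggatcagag
Smtn: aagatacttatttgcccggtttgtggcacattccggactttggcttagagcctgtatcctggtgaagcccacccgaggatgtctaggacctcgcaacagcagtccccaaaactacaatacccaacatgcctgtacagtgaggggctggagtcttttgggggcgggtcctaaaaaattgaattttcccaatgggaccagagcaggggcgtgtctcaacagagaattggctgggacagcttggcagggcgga
Cspg4: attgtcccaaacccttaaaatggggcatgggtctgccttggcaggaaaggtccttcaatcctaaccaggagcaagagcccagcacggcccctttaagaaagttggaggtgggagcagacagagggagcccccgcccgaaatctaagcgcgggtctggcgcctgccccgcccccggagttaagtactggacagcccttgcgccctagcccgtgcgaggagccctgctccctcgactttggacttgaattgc

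The Acta2 stretch holds 2 CArG-like boxes, which begin 84 and 34 bases before the start. The search took the CArG box by name, on both strands, and allowed at most 1 G or C among its 6 central letters. Such a box is in 8.59% of 32851 RefSeq promoter stretches of the same length, and the strict box in 1.47%. The other 6 members with an entry (Cnn1, Mylk, Smtn, Rgs5, Notch3 and Cspg4) hold none in these letters, which says nothing of serum response factor elsewhere at those genes. TGGGAA, the core of a motif bound by the Notch effector RBPJ, was searched on both strands and is in the stretches of Acta2 and Smtn, and in 21.6% of all stretches. In Acta2 it overlaps the end of the box nearer the start. These matches describe the letters and are not evidence of binding.

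The remaining contractile members had no such separation. Myh11, the heavy chain of smooth muscle myosin, had 19.7, 30.1, 42.1 and 49.8 CPM in UNX/DOCA ITF2357 and 27.5, 39.7, 58.0 and 22.4 CPM in UNX/DOCA vehicle hearts, a log2 fold change of -0.06 ± 0.30 (adjusted p = 0.941). Cnn1, calponin, which binds actin and slows the myosin motor, had 0.702, 2.92, 4.56 and 6.92 CPM in UNX/DOCA ITF2357 and 3.51, 6.11, 4.82 and 2.09 CPM in UNX/DOCA vehicle hearts (-0.14 ± 0.50, adjusted p = 0.912). Mylk, the myosin light chain kinase, had 19.7, 25.2, 32.1 and 35.4 CPM in UNX/DOCA ITF2357 and 24.3, 23.5, 33.8 and 16.8 CPM in UNX/DOCA vehicle hearts (0.19 ± 0.22, adjusted p = 0.680). Replicate 1 of the UNX/DOCA ITF2357 hearts was the lowest of its group for all 3 genes and also for Acta2.

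The pericyte members other than Cspg4 overlapped as well. Pdgfrb, the receptor for platelet-derived growth factor B, had 49.1, 87.4, 56.3 and 46.4 CPM in UNX/DOCA ITF2357 and 60.5, 61.5, 88.4 and 63.8 CPM in UNX/DOCA vehicle hearts (-0.20 ± 0.19, adjusted p = 0.609). Notch3, the Notch receptor of mural cells, had 26.95, 43.6, 27.2 and 25.4 CPM in UNX/DOCA ITF2357 and 37.4, 27.7, 54.5 and 23.6 CPM in UNX/DOCA vehicle hearts (-0.21 ± 0.24, adjusted p = 0.678). For both, and for Cspg4, replicate 2 was the highest of the UNX/DOCA ITF2357 hearts and replicate 3 the highest of the UNX/DOCA vehicle hearts. That UNX/DOCA vehicle heart was also the highest of its group for Myh11, Acta2, Mylk and Smtn, but not for Cnn1 or Rgs5. Its library held the fewest counts of all, 23.4 M. Rgs5, which shortens signalling through G proteins and is abundant in pericytes, had 635, 695, 605 and 641 CPM in UNX/DOCA ITF2357 and 633, 592, 573 and 557 CPM in UNX/DOCA vehicle hearts (0.13 ± 0.06, unadjusted p = 0.0615, adjusted p = 0.294).

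**Figure D2:**
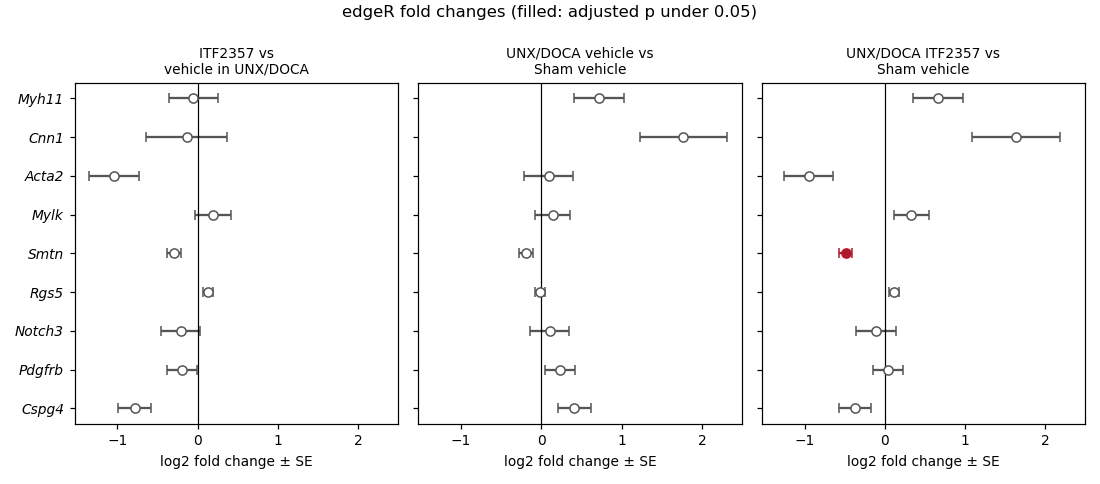
Log2 fold change of each tested member (points) with its standard error (lines) in the 3 comparisons; a filled point marks an adjusted p of at most 0.05. Smtn between UNX/DOCA ITF2357 and Sham vehicle, at -0.49, is the single filled point.

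The second comparison asks what the surgery and hormone did on normal chow. No gene of the 16981 passed the adjusted threshold in edgeR (0%), while 15.9% had an unadjusted p under 0.05 and DESeq2 called 593. Among the members, 3 had an unadjusted p under 0.05. Cnn1 and Myh11 were the higher ones, against 9.42% of all genes, and Smtn the lower one, against 6.47%. The median log2 fold change was 0.14 over the 9 members and 0.01 over all genes.

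Cnn1 lies at chr9:22099216-22109630 on the plus strand of GRCm38. It had 3.51, 6.11, 4.82 and 2.09 CPM in UNX/DOCA vehicle hearts, against 0.722, 1.26, 1.503 and 1.36 CPM in Sham vehicle hearts. The groups did not overlap, and 5.03% of all genes were higher with no overlap. The means were 4.13 ± 1.73 and 1.21 ± 0.341 CPM, a log2 fold change of 1.77 ± 0.54 (unadjusted p = 0.00672, adjusted p = 0.167). Of 17 alternative fits only DESeq2 called it higher (adjusted p = 0.0244), and the highest adjusted p among them was 0.445. Myh11 averaged 36.9 ± 15.8 CPM in UNX/DOCA vehicle and 22.4 ± 2.67 CPM in Sham vehicle hearts, where its libraries had 20.4, 20.8, 26.2 and 21.985 CPM (0.72 ± 0.31, unadjusted p = 0.0374, adjusted p = 0.290). Its groups overlapped through replicate 4 of the UNX/DOCA vehicle hearts.

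Cspg4 was the other member with separate groups. Its 4 UNX/DOCA vehicle libraries lay above its 20.3, 17.7, 18.95 and 16.1 CPM in Sham vehicle hearts (0.41 ± 0.20, unadjusted p = 0.0618, adjusted p = 0.341). Acta2 had means of 307 ± 60.3 CPM in UNX/DOCA vehicle and 288 ± 70.8 CPM in Sham vehicle hearts (0.09 ± 0.31, adjusted p = 0.909). Smtn was at -0.19 ± 0.08 on the log2 scale (unadjusted p = 0.0403, adjusted p = 0.297). Of 17 alternative fits only limma-voom called it lower (adjusted p = 0.0408), and the highest adjusted p among them was 0.524. For Mylk, Rgs5, Notch3 and Pdgfrb the log2 fold changes ran between -0.01 and 0.24, all with adjusted p values of at least 0.572. In Sham vehicle hearts Mylk ran from 19.6 to 28.9 CPM, Rgs5 from 559 to 620.4, Notch3 from 27.8 to 37.4 and Pdgfrb from 52.3 to 64.9 CPM, and each overlapped its UNX/DOCA vehicle range.

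The third comparison sets UNX/DOCA ITF2357 against Sham vehicle hearts, so that surgery, hormone and drug all differ. Smtn was the 1 member called, and 1.75% of all genes were called (155 higher and 143 lower; 0.842% of all genes were called lower). It had 134, 146, 134 and 136 CPM in Sham vehicle hearts, and all 4 UNX/DOCA ITF2357 hearts, at 94.7 to 103 CPM, were below them. Of all genes, 6.39% were lower here with no overlap. Smtn fell to 98.1 ± 3.74 CPM in UNX/DOCA ITF2357 hearts, against 138 ± 5.46 CPM in Sham vehicle hearts, a log2 fold change of -0.49 ± 0.08 (adjusted p = 0.0229). The call was lost without Sham vehicle replicate 1 (adjusted p = 0.0608), 2 (0.0848) or 4 (0.0656), with the log2 fold change between -0.51 and -0.47 in those fits.

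Acta2 was at -0.95 ± 0.31 on the log2 scale in the same comparison (unadjusted p = 0.0098, adjusted p = 0.121) and Cnn1 at 1.63 ± 0.54 (unadjusted p = 0.0109, adjusted p = 0.126). Of 17 alternative fits, 1 called Acta2 lower (DESeq2, adjusted p = 0.0248) and 2 called Cnn1 higher, DESeq2 among them (adjusted p = 0.0290). Replicate 1 of the UNX/DOCA ITF2357 hearts, at 0.702 CPM, was under every Sham vehicle heart for Cnn1, and without that library edgeR called Cnn1 higher (adjusted p = 0.0379). Myh11 was at 0.66 ± 0.31 (adjusted p = 0.253), Mylk at 0.33 ± 0.22 (adjusted p = 0.430), Cspg4 at -0.37 ± 0.20 (adjusted p = 0.326) and Rgs5 at 0.12 ± 0.06 (adjusted p = 0.323). Notch3 and Pdgfrb were at -0.11 ± 0.24 and 0.04 ± 0.19.

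Ratios of CPM within a library were chosen after the values were seen and are given with no test. Acta2 over Myh11 ran from 3.24 to 5.90 in UNX/DOCA ITF2357, from 6.53 to 13.3 in UNX/DOCA vehicle and from 9.30 to 16.7 in Sham vehicle hearts. Cspg4 over Pdgfrb ran from 0.207 to 0.251 in UNX/DOCA ITF2357, from 0.343 to 0.378 in UNX/DOCA vehicle and from 0.281 to 0.363 in Sham vehicle hearts. In both of these the UNX/DOCA ITF2357 hearts lay below all others. A further ratio, Rgs5 over Pdgfrb, ran from 7.95 to 13.8 in UNX/DOCA ITF2357, from 6.47 to 10.47 in UNX/DOCA vehicle and from 8.60 to 11.9 in Sham vehicle hearts, and its groups overlapped. These ratios are not corrected for gene length.

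The spread among replicates differed by gene. The coefficient of variation of Rgs5 was 5.83% in UNX/DOCA ITF2357, 5.57% among UNX/DOCA vehicle and 5.05% among Sham vehicle hearts, under the median of all tested genes (14.9%, 16.9% and 11.6% in the same order). Myh11 varied by 37.4% and 43.0% in UNX/DOCA ITF2357 and UNX/DOCA vehicle hearts, and by 11.96% in Sham vehicle hearts. Cnn1 varied by 69.6% in UNX/DOCA ITF2357 hearts, the highest value of any member in any group.

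After the group means were removed, some members varied together from heart to heart. Over 12 libraries, Myh11 and Mylk had a within-group Pearson r of 0.92 (exact permutation within groups p = 0.000723, Benjamini-Hochberg adjusted over 36 pairs 0.0260), a Spearman rho of 0.811 (exact permutation p = 0.00622, adjusted 0.112) and an r of 0.860 without the 2 libraries farthest from the median. Myh11 and Cnn1 had an r of 0.853 (exact permutation p = 0.00217, adjusted 0.0391), a rho of 0.888 (exact permutation p = 0.0055, adjusted 0.112) and an r of 0.919 without those 2 libraries. These were the 2 pairs of 36 that passed for r, and no pair passed for rho. How often pairs of other genes would pass was not tested. Within UNX/DOCA ITF2357, UNX/DOCA vehicle and Sham vehicle hearts alone, r of Myh11 and Mylk was 0.999, 0.908 and 0.931. That of Myh11 and Cnn1 was 0.984, 0.799 and 0.685. In every pair the 2 libraries left out were those farthest from the median of the first-named gene.

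5 further pairs had an unadjusted p under 0.05. Pdgfrb and Cspg4 had a within-group r of 0.929 (exact permutation p = 0.0060, adjusted 0.0616) and a rho of 0.678 (exact permutation p = 0.0321, adjusted 0.193), with an r of 0.732 without the 2 farthest libraries. Notch3 and Pdgfrb had an r of 0.818 (exact permutation p = 0.0101, adjusted 0.0616) and a rho of 0.664 (exact permutation p = 0.0161, adjusted 0.193), and Notch3 and Cspg4 an r of 0.760 (exact permutation p = 0.0143, adjusted 0.0737) and a rho of 0.629 (exact permutation p = 0.0383, adjusted 0.197). Without the 2 farthest libraries their r became 0.468 and 0.357. Leaving out the extremes of the first-named gene also narrows its range, so how many hearts these relations rest on was not tested. Within UNX/DOCA ITF2357, UNX/DOCA vehicle and Sham vehicle hearts alone, with 4 libraries each, r of Pdgfrb and Cspg4 was 0.972, 0.972 and 0.356. In the same order it was 0.979, 0.788 and 0.886 for Notch3 and Pdgfrb, and 0.951, 0.908 and -0.045 for Notch3 and Cspg4. Acta2 and Smtn had an r of 0.535 (exact permutation p = 0.00904, adjusted 0.0616) and a rho of 0.699 (exact permutation p = 0.0234, adjusted 0.193), with an r of 0.581 without the 2 farthest libraries. Cnn1 and Mylk had an r of 0.761 (exact permutation p = 0.0103, adjusted 0.0616) and a rho of 0.699 (exact permutation p = 0.0273, adjusted 0.193), with an r of 0.644 without them. The median r over the 36 pairs was 0.275. All members share the libraries and their depth.

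**Figure D3:**
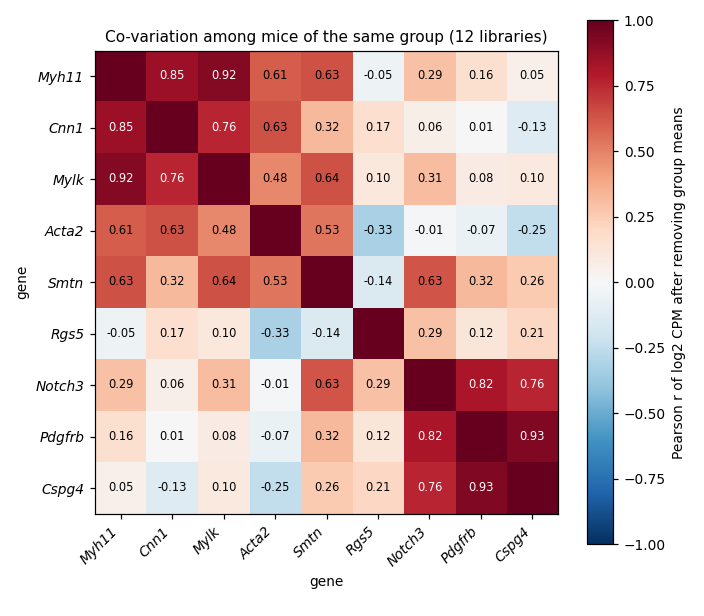
Within-group Pearson r between the tested members over 12 libraries after group means were removed, from blue for negative to red for positive. Myh11, Cnn1 and Mylk form one block of high r and Notch3, Pdgfrb and Cspg4 another.

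The genes most like each member over the 12 libraries of log2 CPM, by Pearson r as a description, included further muscle genes for the myosin and calponin members. Nearest to Myh11 were Susd5 (r = 0.96), Ccdc3 (0.93) and Lmod1 (0.92), the last a smooth muscle actin nucleator. Nearest to Cnn1 were Myl9 (0.94), a smooth muscle myosin light chain, Actg2 (0.93), the enteric smooth muscle actin, and Susd5 (0.92). For Acta2 they were Fxyd1 (0.918), Ldha (0.918) and Yif1b (0.915). For Cspg4 they were Csk (0.974), Supt6 (0.962) and Tmem43 (0.936), and for Pdgfrb Ttll12 (0.907), Ap1g2 (0.906) and Fbln2 (0.902). The nearest gene was Gm2451 for Mylk (0.897), Usp11 for Smtn (0.953), Ebf1 for Notch3 (0.901) and a gene without a symbol for Rgs5 (0.925). For the mean of the members it was Supt7l (0.923). Group means were not removed here, so differences between groups enter these r.

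The 29 other tested genes listed for smooth muscle contraction summed to 10771 to 12700 CPM in UNX/DOCA ITF2357 hearts. The tested members summed to 943 to 1131 CPM there. Which cells of the ventricle made the RNA of the 29 genes was not tested. Between UNX/DOCA ITF2357 and UNX/DOCA vehicle hearts 1 of them was called lower and none higher, where 0.901% of all genes were called. Their median log2 fold change was -0.11. The gene called was Pdlim7, an actin-associated PDZ and LIM protein, with 26.6, 26.2, 27.3 and 34.6 CPM in UNX/DOCA ITF2357 against 44.2, 38.2, 50.3 and 42.9 CPM in UNX/DOCA vehicle hearts (-0.61 ± 0.12, adjusted p = 0.0378). Its groups did not overlap, and it was also called lower in UNX/DOCA ITF2357 than in Sham vehicle hearts (-0.53, adjusted p = 0.0436). The first call was lost without UNX/DOCA vehicle replicate 3 or 4 or UNX/DOCA ITF2357 replicate 1, 2 or 3 (adjusted p between 0.0572 and 0.105), and the second without UNX/DOCA ITF2357 replicate 1, 2 or 3 or any 1 of the 4 Sham vehicle libraries (0.0549 to 0.123) or with upper-quartile scaling (0.0533).

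Between UNX/DOCA vehicle and Sham vehicle hearts, none of the 29 contractile genes was called, 12 were higher and 1 lower at an unadjusted p under 0.05, and the median was 0.38. Of all genes, 9.42% were higher at that p. Tpm2, the beta tropomyosin, had 22.5, 22.6, 26.7 and 16.2 CPM in UNX/DOCA vehicle against 11.3, 10.6, 12.7 and 12.7 CPM in Sham vehicle hearts (0.90 ± 0.18, adjusted p = 0.0954). Its groups did not overlap. Between UNX/DOCA ITF2357 and Sham vehicle hearts the median was 0.26, with 1 gene called lower and none higher. Of all genes, 0.842% were called lower there.

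Of 23 other pericyte genes none was called in any comparison, and the medians were -0.00, -0.07 and -0.01 in the order in which the comparisons are given above. The potassium channel subunit Kcnj8 averaged 30.9 ± 5.88 CPM in UNX/DOCA ITF2357, 28.8 ± 2.87 CPM among UNX/DOCA vehicle and 31.6 ± 2.88 CPM among Sham vehicle hearts. Its partner Abcc9, which is also made by cardiomyocytes, was at -0.54 between UNX/DOCA vehicle and Sham vehicle hearts (adjusted p = 0.0954). Mcam and Steap4 were at 0.77 and 0.63 there (adjusted p = 0.125 and 0.151). Between UNX/DOCA ITF2357 and UNX/DOCA vehicle hearts they were at -0.62 and -0.47 (adjusted p = 0.138 and 0.198). Pdzd2 went the other way, at -0.47 and then 0.24 (adjusted p = 0.135 and 0.348). None of the 5 platelet-derived growth factor ligands and receptors was called in any comparison. Pdgfb, the ligand of Pdgfrb made by endothelium, was at -0.08, -0.01 and -0.09 in the same order.

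Among regulators, 16 of 18 listed genes of the serum response factor and myocardin system were tested. None was called between UNX/DOCA ITF2357 and UNX/DOCA vehicle or between UNX/DOCA vehicle and Sham vehicle hearts. Between UNX/DOCA ITF2357 and Sham vehicle hearts 1 was called in each direction, where 1.75% of all genes were called. Csrp2, a LIM protein of smooth muscle, averaged 21.5 ± 4.60 CPM in UNX/DOCA ITF2357 and 13.9 ± 1.36 CPM in Sham vehicle hearts (0.63 ± 0.14, adjusted p = 0.0418). It was at 0.44 between UNX/DOCA vehicle and Sham vehicle hearts (adjusted p = 0.174). Between UNX/DOCA ITF2357 and UNX/DOCA vehicle hearts it was at 0.20 (adjusted p = 0.474). Elk1, a partner of serum response factor, was called lower between UNX/DOCA ITF2357 and Sham vehicle hearts (-0.45 ± 0.10, adjusted p = 0.0458). In the comparisons just given for Csrp2, Elk1 was at -0.22 and -0.24 (adjusted p = 0.321 and 0.237). Leaving out any 1 of the Sham vehicle libraries lost both calls, as did UNX/DOCA ITF2357 replicate 3 or 4, and replicate 2 for Elk1 (adjusted p between 0.0540 and 0.135 for Csrp2 and between 0.0588 and 0.127 for Elk1). The Elk1 call was also lost with upper-quartile scaling (adjusted p = 0.0612) and with library totals (0.0716). Srf itself had 82.3, 78.8, 75.6 and 86.0 CPM in UNX/DOCA ITF2357, against 106, 96.6, 92.8 and 103 CPM in Sham vehicle hearts, with no overlap (-0.31, adjusted p = 0.102). Its 106, 78.8, 103 and 85.8 CPM in UNX/DOCA vehicle hearts overlapped those of UNX/DOCA ITF2357 (-0.21, adjusted p = 0.254). Myocd, which encodes myocardin, was at 0.01 between these 2 groups (adjusted p = 0.986). Against Sham vehicle it was at -0.40 in both UNX/DOCA groups (adjusted p = 0.270 for vehicle and 0.211 for ITF2357).

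Of 19 tested genes of the Notch pathway, 1 was called in 1 comparison, in which 1.75% of all genes were called. Notch1 averaged 27.8 ± 4.33 CPM in UNX/DOCA ITF2357 and 38.1 ± 2.35 CPM in Sham vehicle hearts (-0.46 ± 0.10, adjusted p = 0.0436). The call was lost without UNX/DOCA ITF2357 replicate 1, 3 or 4 or any 1 of the Sham vehicle libraries (0.0507 to 0.123) or with library totals (0.0623). Notch1 was at -0.37 between UNX/DOCA vehicle and Sham vehicle hearts (adjusted p = 0.135). Between UNX/DOCA ITF2357 and UNX/DOCA vehicle hearts it was at -0.09 (adjusted p = 0.686). Of 15 tested genes of the RGS family, to which Rgs5 belongs, 1 was called. It was called between UNX/DOCA ITF2357 and UNX/DOCA vehicle hearts, as were 0.901% of all genes. Rgs6 had 21.1, 15.7, 18.8 and 16.2 CPM in UNX/DOCA ITF2357 against 10.3, 13.96, 11.8 and 11.2 CPM in UNX/DOCA vehicle hearts (0.60 ± 0.12, adjusted p = 0.0388). The groups did not overlap, and the call was lost without replicate 1, 3 or 4 of either group (adjusted p between 0.0533 and 0.123). Rgs6 was at 0.08 between UNX/DOCA ITF2357 and Sham vehicle hearts. None of 23 tested receptors and kinases of vascular tone was called in any comparison.

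Of 11 tested genes linked to the synthetic, non-contractile state of smooth muscle, 10 were below 0 on the log2 scale between UNX/DOCA ITF2357 and UNX/DOCA vehicle hearts, with a median of -0.64, and 10 were above 0 between UNX/DOCA vehicle and Sham vehicle hearts, with a median of 0.73. Of all 16981 genes, 8527 were below 0 in the former comparison and 8678 above 0 in the latter. Both comparisons use the UNX/DOCA vehicle libraries. In the former 0.901% of all genes were called. Tpm4, a cytoskeletal tropomyosin, was the 1 call among them, with 79.8, 86.1, 77.0 and 123 CPM in UNX/DOCA ITF2357 against 123, 143, 166 and 180.0 CPM in UNX/DOCA vehicle hearts (-0.74 ± 0.15, adjusted p = 0.0418). The call was lost without UNX/DOCA vehicle replicate 3 or 4 or UNX/DOCA ITF2357 replicate 1, 2 or 3 (adjusted p between 0.0596 and 0.123), and Sham vehicle hearts averaged 92.6 ± 6.05 CPM. Many genes of this list are also made by fibroblasts.

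**Figure D4:**
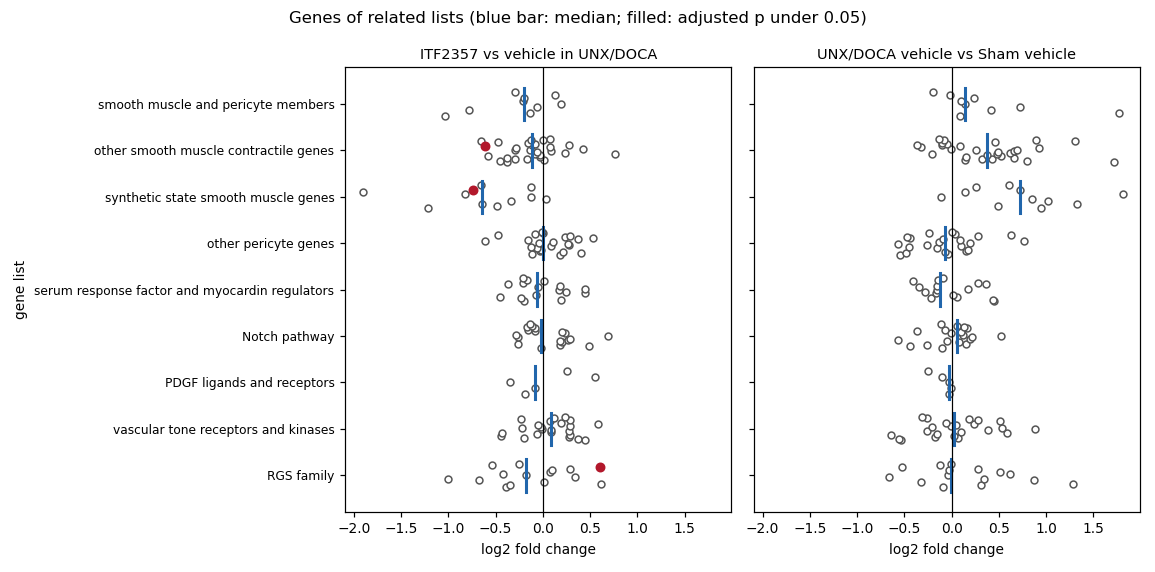
Log2 fold change of each tested gene (points) in 9 gene lists, with the list median (blue bars), between UNX/DOCA ITF2357 and UNX/DOCA vehicle on the left and between UNX/DOCA vehicle and Sham vehicle on the right; filled points have an adjusted p of at most 0.05. The synthetic state median is at -0.64 on the left and at 0.73 on the right, the median of the other pericyte genes is at -0.00 and -0.07, and the 3 filled points are Pdlim7, Tpm4 and Rgs6.

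Markers of other cell types are set beside Acta2, Cspg4 and Cnn1. All 7 tested activated fibroblast markers were below 0 between UNX/DOCA ITF2357 and UNX/DOCA vehicle hearts (median -0.55, none called), and their summed level ran from 68.8 to 135 CPM in UNX/DOCA ITF2357, from 105 to 180.3 CPM in UNX/DOCA vehicle and from 67.2 to 117 CPM in Sham vehicle hearts. Of all 16981 genes, 8527 were below 0 between UNX/DOCA ITF2357 and UNX/DOCA vehicle hearts. The 10 fibroblast markers had a median of -0.26 in that comparison and the 10 macrophage markers one of -0.41, with none called. The 12 endothelial markers had a median of -0.07, and summed to 954 to 1438 CPM in UNX/DOCA ITF2357 and 1181 to 1369 CPM in UNX/DOCA vehicle hearts. Between UNX/DOCA vehicle and Sham vehicle hearts, where Cnn1 and Myh11 were higher, the medians were 0.66 for activated fibroblast and 0.32 for fibroblast markers. They were 0.60 for macrophage, 0.12 for endothelial and -0.09 for cardiomyocyte markers. Replicate 3 of the UNX/DOCA vehicle hearts had the highest sums of its group for fibroblast (2591 CPM) and macrophage markers (635 CPM). The part of these cells in the values of Acta2, Cspg4, Cnn1 and Myh11 was not tested. Of 6 arterial endothelial markers 1 was called, Sema3g, at 29.5 ± 3.36 CPM in UNX/DOCA ITF2357 and 18.98 ± 1.55 CPM in Sham vehicle hearts (0.64 ± 0.11, adjusted p = 0.0180), a call lost without UNX/DOCA ITF2357 replicate 3 or any 1 of Sham vehicle replicates 1, 2 and 4 (0.0527 to 0.0728). Between UNX/DOCA ITF2357 and Sham vehicle hearts 1.75% of all genes were called. Sema3g was at 0.45 between UNX/DOCA vehicle and Sham vehicle hearts (adjusted p = 0.108). Between UNX/DOCA ITF2357 and UNX/DOCA vehicle hearts it was at 0.19 (adjusted p = 0.352). Of 6 mesothelial markers 5 were too low to test.

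None of the 2046 different stretches of 150 bases in the Acta2 transcripts is found in another gene of the GRCm38 models, the other actins included. Per kilobase, the cardiac actin Actc1 stood at 6362, 7121 and 7420 CPM per kb in UNX/DOCA ITF2357, UNX/DOCA vehicle and Sham vehicle hearts, against 68.0, 139.8 and 131 for Acta2. The cytoplasmic actins were nearer to Acta2, with 86.5, 127 and 111 CPM per kb for Actb and 43.5, 59.8 and 57.0 CPM per kb for Actg1 in the same order of groups. The skeletal actin Acta1 had 369, 1333, 1403 and 660.0 CPM in UNX/DOCA ITF2357 against 2960, 1881, 2226 and 2774 CPM in UNX/DOCA vehicle hearts, with no overlap (-1.39 ± 0.44, adjusted p = 0.136). All 6 actin genes, Acta2 among them, were below 0 in that comparison, with a median of -0.51 and none called. Of all 16981 genes, 8527 were below 0 there. Smtn, Mylk and Notch3 each have genes on the other strand within their bounds, and 3.33%, 1.04% and 2.37% of the different stretches of 150 bases in their transcripts are also found in those genes. Reads from them cannot be told apart where the counting did not use strand.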

How the data were processed

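Poly(A) RNA of about 10 mg of left ventricle was sequenced as paired reads of 150 bases from a strand-marking kit, per the labels' protocols. The authors deposited raw gene counts for 12 libraries; FastQC 0.11.9, STAR 2.7.10b and the build mm39 are named in the submitters' processing notes, and these notes and labels name no counting tool, strand setting or annotation release. Groups follow the sample titles, which all name ITF2357 for the 4 drug-fed hearts; the treatment field of those hearts reads ITF2357, ITF2358, ITF2359 and ITF2360. Ensembl IDs were matched to symbols through GENCODE M21 (GRCm38), which also gave lengths, positions and shared stretches; at least 99.2% of the counts of each library carry a symbol. Those coordinates are not of the build the reads were aligned to.

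Genes were kept by filterByExpr with a count minimum of 10, scaled by TMM and tested in R 4.3.3 with the robust quasi-likelihood test of edgeR 4.0.16, with a term per group over all 12 libraries (9 residual degrees of freedom, common biological coefficient of variation 0.187) and Benjamini-Hochberg adjustment. CPM values use TMM library sizes. Fits were tested on simulated data. DESeq2 1.42.0, limma 3.58.1 (voom), other scalings, no filter, a replicate block, 2-group fits and leaving out each library were alternatives. Correlations within groups used every permutation of the libraries within their groups.

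The members and the gene lists were chosen with earlier results of these data known. Members were always named, from each list up to 4 genes with the smallest p, and relatives of a member with their values.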

Additional observations from a re-analysis of the deposited data

Results flagged for a closer look

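Of 27 sets of 4 libraries (9 members in 3 groups), 4 had 1 library set apart from the other 3 by more than Dixon's 95% critical value of 0.829 as a share of the range. Chance flags about 1 in 20 such sets. Notch3 stood at 43.6 CPM in UNX/DOCA ITF2357 replicate 2, where the next highest was 27.2 CPM. Pdgfrb stood at 88.4 CPM in UNX/DOCA vehicle replicate 3, where the next highest was 63.8 CPM. Cspg4 stood at 31.1 CPM in the same UNX/DOCA vehicle library, where the next highest was 22.8 CPM. Mylk stood at 28.9 CPM in Sham vehicle replicate 3, where the next highest was 20.9 CPM.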

How the results depend on the processing

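Of 595 single-gene values under the alternatives, 504 kept direction and call, 61 lost a call, 9 gained one and 21 changed sign. Counts of called genes moved most. Between UNX/DOCA ITF2357 and UNX/DOCA vehicle hearts, 153 genes became 352 with no filter, 928 with DESeq2, 239 with voom, 5 with only the 2 groups compared, and 14 to 243 without 1 library. Between UNX/DOCA vehicle and Sham vehicle hearts, 0 became 7 with upper-quartile scaling, 210 with no filter, 593 with DESeq2, 559 with voom, and 0 to 380 without 1 library. Between UNX/DOCA ITF2357 and Sham vehicle hearts, 298 became 1180 with DESeq2, 1528 with voom, 475 with only the 2 groups, and 17 to 310 without 1 library. In the same order, members called were 3, 1 and 3 with DESeq2, 1 in the second comparison with voom, and 0 to 1, 0 to 0 and 0 to 2 without 1 library. Upper-quartile scaling turned the share of calls that were higher to 62.4% in the first and 70.6% in the third comparison, and library totals to 63.7% in the third, against 51.0% and 52.0%; no scaling moved the median of all genes by more than 0.033.

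The deviations of same-numbered libraries from their group means had r from -0.19 to 0.25 over 12 pairs (median 0.00, 3 over 0.1). These values came with no test and cannot exclude a pairing of the hearts. The replicate numbers are not stated to pair animals. The replicate block gave 68, 31 and 192 called genes in the 3 comparisons and changed no call of a member; against Sham vehicle it ended those of Pdlim7 (adjusted p = 0.0507), Notch1 (0.0623) and Elk1 (0.0509), and against UNX/DOCA vehicle that of Rgs6 (0.0666). With only the 2 groups compared, the calls of Tpm4 (0.148), Pdlim7 (0.123) and Rgs6 (0.147) against UNX/DOCA vehicle were lost.

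The sign changes were all of members whose log2 fold change in the main fit was smaller in size than its SE. With voom, Myh11 was at 0.21 and Notch3 at 0.036 in the first comparison, Acta2 at -0.015, Mylk at -0.012 and Notch3 at -0.22 in the second, and Pdgfrb at -0.025 in the third; with library totals Rgs5 was at 0.0092 in the second. Without 1 library, the first comparison ran from -0.59 to 0.20 for Cnn1, -0.26 to 0.24 for Myh11 and -0.43 to 0.055 for Notch3. The second ran from -0.054 to 0.23 for Acta2, -0.050 to 0.28 for Mylk, -0.17 to 0.25 for Notch3 and -0.057 to 0.0071 for Rgs5, and the third from -0.21 to 0.13 for Pdgfrb. The cause was not tested. At 23.4 counts or more per CPM, Cnn1 rests on the fewest counts of the tested members, and Tagln was below what the depth allows to be compared.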
